A study of Mus musculus with 10 samples.

Results

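The mitochondrial genome of the mouse supplied 37 of the 37882 genes in the deposited count table: 13 mRNAs, 2 rRNAs and 22 tRNAs. They were taken as every row whose name begins with mt-. The 10 libraries came from orthotopic breast tumours of MCa-M3C, a cell line of mouse mammary cancer, implanted in FVB/N hosts. The TMA-ARB group (5 libraries, numbered 6 to 10) received valsartan, a blocker of the angiotensin II type 1 receptor, in the TMA-ARB form, which per the series title is activated in the tumour microenvironment, at 40 mg/kg by daily retro-orbital injection for 6 days. The Control group (5 libraries, numbered 1 to 5) received the same volume of PBS by the same route. Both groups started from tumours of about 100 mm3, and every library was made from poly-A-selected RNA with a kit that marks strand. The labels used here give no sex or age of the hosts and do not state whether every library has its own animal; the tests below therefore speak of the variation among libraries. The question asked of the mitochondrial genes was whether their levels, and the share each takes of the mitochondrial total, differed between treated and control tumours.

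Mitochondrial genes are transcribed from both strands of a circular genome as long precursors, which are cut at the tRNAs that lie between most mRNAs and rRNAs. The mRNAs code for core subunits of 4 respiratory complexes: complex I (NADH dehydrogenase), complex III (the cytochrome bc1 complex), complex IV (cytochrome c oxidase) and complex V (ATP synthase). The rRNAs and tRNAs serve the translation of these mRNAs inside the organelle. Most mitochondrial mRNAs carry a short poly-A tail, which completes the stop codon of several of them, whereas mature tRNAs end in CCA and carry none, so the counts describe poly-A-selected RNA and not the pool of mature tRNA.

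The mitochondrial genes took 2.22, 3.18, 10.5, 25.0 and 11.7% of all counts in TMA-ARB libraries 6 to 10, against 2.15, 2.07, 6.37, 6.63 and 3.75% in Control libraries 1 to 5; values below follow this order. The 3 highest libraries were TMA-ARB 9, 10 and 8, but TMA-ARB 6 and 7 lay below Control 3, 4 and 5, so the groups overlapped. The share averaged 10.5 ± 9.12% under TMA-ARB and 4.19 ± 2.21% in Control (SD, n = 5 each), a difference of 6.31 percentage points. Without TMA-ARB 9 the difference was 2.69 points. Library totals ran from 12742953 to 16884621 counts, and the exact 95% binomial interval of the share, which covers counting error only, was 24.9 to 25.0% in TMA-ARB 9 and 2.07 to 2.08% in Control 2. In bulk RNA, more mitochondrial transcripts per cell, more cells rich in them and a smaller pool of other RNA cannot be told apart.

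**Figure D1:**
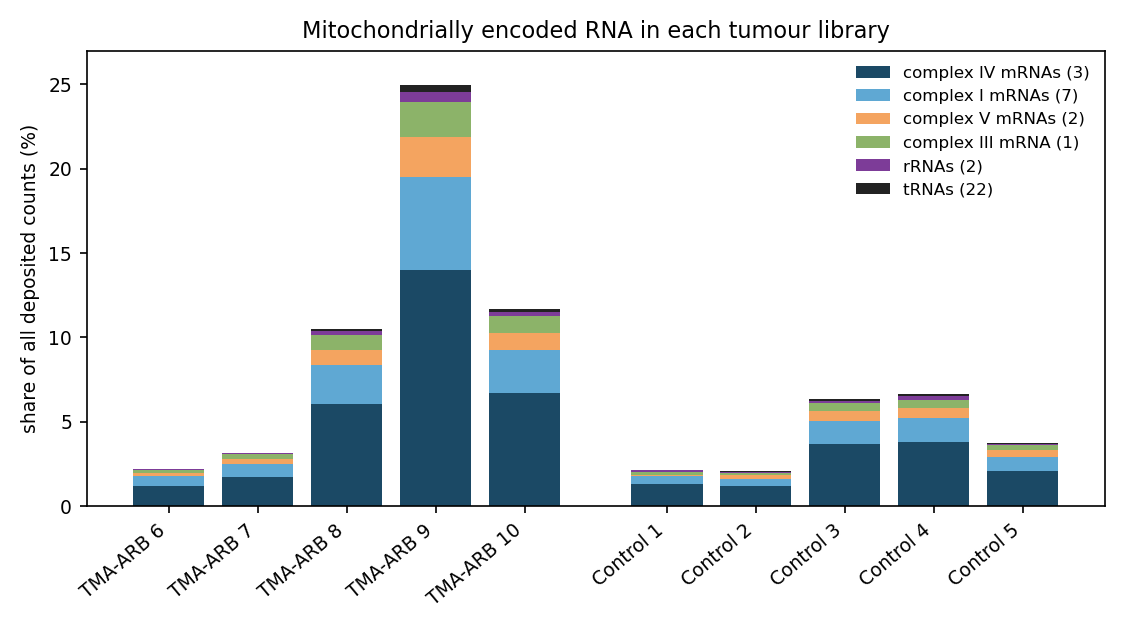
Share of all deposited counts (%, vertical axis) taken by mitochondrially encoded genes in each of the 10 libraries, TMA-ARB 6 to 10 on the left and Control 1 to 5 on the right, stacked by class with the number of genes in brackets. The bars run from 2.07% in Control 2 to 25.0% in TMA-ARB 9, and complex IV mRNAs form the largest block in every library.

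The makeup of the mitochondrial total varied far less than its size. mRNAs made up 95.6, 96.4, 96.5, 95.9 and 96.4% of it under TMA-ARB, against 94.3, 95.1, 95.9, 94.7 and 96.5% in Control. The complex IV mRNAs alone took 54.4 to 58.0% under TMA-ARB and 56.0 to 61.6% in Control, the complex I mRNAs 21.7 to 24.8% and 20.7 to 22.1%, the complex III mRNA 8.05 to 8.60% and 7.13 to 8.47%, and the complex V mRNAs 8.14 to 9.67% and 4.70 to 9.85%, the lowest being Control 1. rRNAs took 2.21 to 2.82% under TMA-ARB and 2.21 to 3.91% in Control, and tRNAs 1.22 to 1.62% and 1.28 to 1.83%. Every one of these ranges overlapped between the groups. Over the 10 libraries, the highest mitochondrial total in CPM was 17.6-fold the lowest. By gene, the ratio of highest to lowest level among the 13 mRNAs ran from 13.3-fold (mt-Nd3) to 36.4-fold (mt-Atp6), whereas the ratio of highest to lowest share ran from 1.14-fold (mt-Co3) to 2.89-fold (mt-Nd3). The ratio of levels ran from 11.8-fold to 21.2-fold without Control 1, the library with the lowest mt-Atp6 level, and from 6.06-fold to 11.8-fold without TMA-ARB 9.

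Counts were compared in one fit over the whole table with the quasi-likelihood F test of edgeR, in CPM (counts per 1000000 counts of the scaled library size). A filter on low counts left 14063 genes, among them 31 of the 37 mitochondrial genes; the 6 left out were all tRNAs. No mitochondrial gene passed (0 of 31 at an edgeR adjusted p under 0.05, every adjusted p = 0.997), and 0% of all genes tested passed. At an unadjusted p under 0.05, 11 of the 31 were higher under TMA-ARB and 0 lower, against 1.59% of all genes tested higher and 1.66% lower (3.25% in either direction). The 11 genes are not independent of each other, since they share the same libraries and, as background, the same precursor RNAs. Fitted log2 fold changes (TMA-ARB over Control) were positive for 30 of the 31 and had a median of 1.36, against 0.021 over all genes tested. The groups' CPM ranges overlapped for all 31 (0 not overlapping, against 0.526% of all genes tested). The median was 0.57 without TMA-ARB 9. The count at an unadjusted p under 0.05 was 18 without TMA-ARB 6, 5 without TMA-ARB 8, 1 without TMA-ARB 9, 6 without TMA-ARB 10, 2 without Control 1, 1 without Control 2 and 3 without Control 5. Counts without TMA-ARB 7, Control 3 and Control 4 are not given here. The median without them was 1.61, 1.64 and 1.71 in that order. No share of all genes was taken for any run with a library left out, so these counts have none beside them.

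A second fit asked whether a gene takes another share of the mitochondrial total, with that total in place of the library size for these rows. It passed 0 of 31 genes at an edgeR adjusted p under 0.05, as it did 0% of all genes tested, and gave 1 gene, mt-Rnr1, an unadjusted p under 0.05 (3.19% of all genes tested). Log2 changes of share were positive for 12 genes and negative for 19. This fit takes its error in part from all genes tested. Its SE, at least 0.155, and its p therefore do not measure the spread of a gene's own shares alone. Beside this fit, the share of each gene went through a two-sided exact permutation test over all divisions of the libraries, 5 against 5. Its smallest possible p was 0.00794. Of the 31 genes, 3 had an unadjusted exact p under 0.05 (mt-Nd1, mt-Nd2 and mt-Cytb). These p-values are not adjusted for the 31 tests. The permutation test was run on these genes only, so no share over all genes stands beside its count of 3. None of the 31 had shares that did not overlap between the groups, against 0.526% of all genes tested. For genes outside the mitochondrial genome, that percentage was taken on CPM. Shares of the same total are also not independent, because a lower share of some genes raises that of others.

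**Figure D2:**
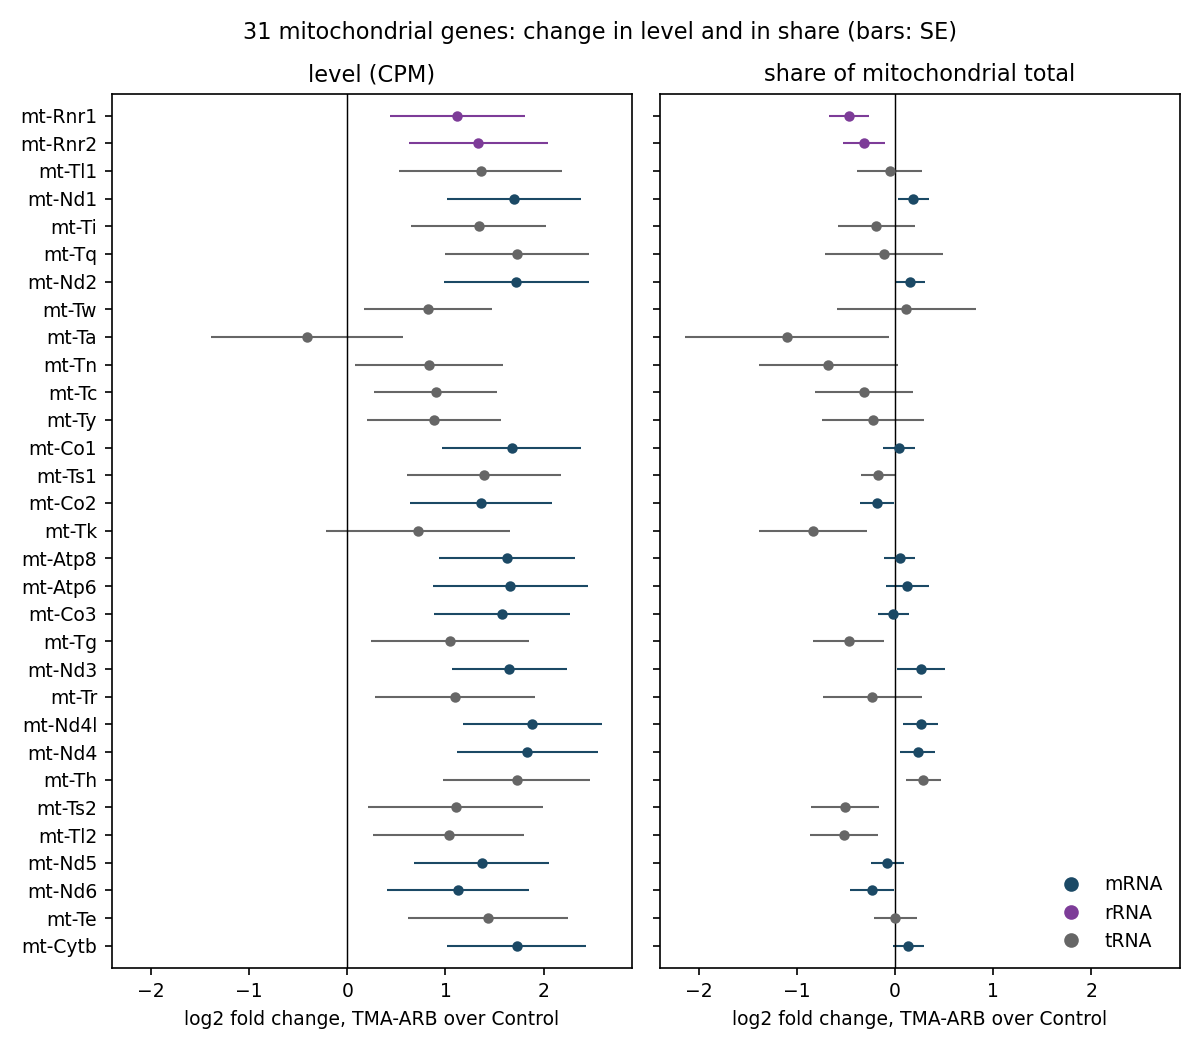
Fitted log2 fold change, TMA-ARB over Control, of the level (CPM, left) and of the share of the mitochondrial total (right) for the 31 genes tested, in genome order from the top, with bars of 1 SE. Levels lie to the right of 0 for 30 genes with bars of 0.58 to 0.97, and shares lie on both sides of 0.

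Complex I takes electrons from NADH and pumps protons, and 7 of its membrane subunits are coded in the mitochondrial genome. mt-Nd1 (chrM:2751-3707, plus strand), a subunit at the junction of the membrane and matrix arms, stood at 1307, 2265, 6608, 20059 and 7496 CPM under TMA-ARB, against 1119, 1112, 3649.8, 3617 and 2107 CPM in Control. TMA-ARB 8, 9 and 10 were above every Control library, and TMA-ARB 6 and 7 lay among them. Its level differed by a log2 fold change of 1.70 ± 0.68 (SE; edgeR unadjusted p = 0.0302). As a share of the mitochondrial total it was 7.07, 7.02, 5.90, 6.16 and 6.22% under TMA-ARB, against 5.56, 5.68, 5.91, 5.28 and 6.06% in Control. All 5 TMA-ARB libraries were above the Control mean, TMA-ARB 6 and 7 most of all, while TMA-ARB 8 was below Control 3 and 5. The share averaged 6.47 ± 0.535% under TMA-ARB and 5.70 ± 0.306% in Control (SD, n = 5 each), with an unadjusted two-sided exact permutation p = 0.0238; in the share fit the log2 change was 0.18 ± 0.16 (SE; edgeR unadjusted p = 0.266).

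mt-Nd2 (chrM:3914-4951, plus strand), one of the antiporter-like proton-pumping subunits, stood at 693, 1164, 3796, 12411 and 4413 CPM under TMA-ARB, against 603, 623, 2156, 2239 and 1206 CPM in Control. Its shares were 3.75, 3.61, 3.39, 3.81 and 3.66% under TMA-ARB, against 3.00, 3.18, 3.49, 3.27 and 3.47% in Control. The lowest 3 libraries by share were Control 1, 2 and 4, and TMA-ARB 8 overlapped Control 3 and 5. The share averaged 3.64 ± 0.163% under TMA-ARB and 3.28 ± 0.206% in Control (SD, n = 5 each), with an unadjusted two-sided exact permutation p = 0.0238, and the share fit gave 0.15 ± 0.15 (SE; edgeR unadjusted p = 0.346). The fold change of its level was 1.72 ± 0.74 on the log2 scale.

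mt-Nd4 (chrM:10167-11544, plus strand), another antiporter-like subunit, and mt-Nd4l (chrM:9877-10173, plus strand), a small subunit beside it, overlap by 7 bases and are carried on one mRNA. The end of mt-Nd4l is shown, from GENCODE mouse release 21 on GRCm38, the assembly of mm10. Capitals are the 7 bases shared with the start of mt-Nd4, chrM:10167-10173.
mt-Nd4l end: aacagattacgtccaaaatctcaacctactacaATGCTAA
mt-Nd4 stood at 847, 1741, 6213, 16560.4 and 6173 CPM under TMA-ARB, against 697, 974, 2572, 2757 and 1848 CPM in Control. mt-Nd4l stood at 89.4, 173, 700.5, 1632 and 688 CPM under TMA-ARB, against 84.3, 93.2, 268, 239.6 and 205 CPM in Control. They had the largest fitted log2 fold changes of level among the mRNAs, 1.83 ± 0.72 for mt-Nd4 and 1.88 ± 0.71 for mt-Nd4l (SE), and neither passed. mt-Nd4 took 4.58, 5.40, 5.54, 5.09 and 5.12% under TMA-ARB, against 3.46, 4.97, 4.16, 4.02 and 5.32% in Control of the mitochondrial total. mt-Nd4l took 0.483, 0.536, 0.625, 0.501 and 0.571% under TMA-ARB, against 0.419, 0.476, 0.433, 0.350 and 0.590% in Control. For both, all 5 TMA-ARB libraries were above the Control mean and Control 5 lay within the TMA-ARB range, as did Control 2 for mt-Nd4. The unadjusted two-sided exact permutation p was 0.0794 for mt-Nd4 and 0.0952 for mt-Nd4l. mt-Nd4l counts per 100 mt-Nd4 counts were 10.5, 9.93, 11.3, 9.85 and 11.2 under TMA-ARB, against 12.1, 9.58, 10.4, 8.69 and 11.1 in Control, so the ratio within the pair overlapped.

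mt-Nd3 (chrM:9459-9806, plus strand), a small subunit near the quinone-binding region, stood at 83.0, 191, 322, 950.3 and 481 CPM under TMA-ARB, against 71.7, 80.3, 241, 141 and 112 CPM in Control. It had the smallest unadjusted p of level among the mitochondrial genes, 0.0168 (edgeR, log2 fold change 1.65 ± 0.58, SE), and did not pass. Its share was 0.449, 0.592, 0.287, 0.292 and 0.399% under TMA-ARB, against 0.356, 0.410, 0.390, 0.205 and 0.323% in Control, the widest relative spread of any mRNA. TMA-ARB 7 was highest and Control 4 lowest, and the unadjusted two-sided exact permutation p of the share was 0.365.

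mt-Nd5 (chrM:11742-13565, plus strand), the largest antiporter-like subunit, stood at 834, 1264, 4393, 11404 and 3902 CPM under TMA-ARB, against 838, 725, 2326, 3227 and 1333 CPM in Control. Its share was 4.51, 3.92, 3.92, 3.50 and 3.24% under TMA-ARB, against 4.16, 3.70, 3.76, 4.71 and 3.84% in Control. mt-Nd6 (chrM:13552-14070, minus strand) is the single mRNA on the other strand, codes for a membrane subunit, and its gene overlaps the end of mt-Nd5 by 14 bases, chrM:13552-13565. In human cells the ND6 mRNA is known to lack a poly-A tail. mt-Nd6 stood at 725, 883, 2435, 8651 and 3012 CPM under TMA-ARB, against 788, 438, 2308, 2776 and 879 CPM in Control. As a share it was 3.92, 2.74, 2.17, 2.66 and 2.50% under TMA-ARB, against 3.92, 2.24, 3.74, 4.05 and 2.53% in Control. TMA-ARB 9 was highest by level and TMA-ARB 6 highest of its group by share. mt-Nd5 differed in level by 1.37 ± 0.69 and mt-Nd6 by 1.13 ± 0.73 (log2 fold change, SE), mt-Nd6 being the lowest of the 13 mRNAs, with log2 changes of share of -0.080 ± 0.17 and -0.24 ± 0.23 in that order. mt-Nd6 counts per 100 mt-Nd5 counts were 86.9, 69.9, 55.4, 75.9 and 77.2 under TMA-ARB, against 94.1, 60.5, 99.2, 86.0 and 66.0 in Control. Whether Salmon, the authors' counting tool, was told the strand of the reads is not given in the sources used here. Counts of mt-Nd6, mt-Te and mt-Ts1 therefore cannot be told apart from reads of the strand opposite to them.

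Complex III passes electrons to cytochrome c, and mt-Cytb (chrM:14145-15288, plus strand), its cytochrome b, is the only subunit coded in the mitochondrial genome. mt-Cytb stood at 1521, 2612, 9026, 26783 and 10359.7 CPM under TMA-ARB, against 1443, 1471, 4487, 4884 and 2944 CPM in Control. It differed in level by 1.72 ± 0.71 (log2 fold change, SE; edgeR unadjusted p = 0.0335). Its share was 8.22, 8.10, 8.05, 8.23 and 8.60% under TMA-ARB, against 7.17, 7.51, 7.26, 7.13 and 8.47% in Control. All 5 TMA-ARB libraries and Control 5 lay between 8.05 and 8.60%, and Control 1 to 4 between 7.13 and 7.51%. The share averaged 8.24 ± 0.214% under TMA-ARB and 7.51 ± 0.559% in Control (SD, n = 5 each), with an unadjusted two-sided exact permutation p = 0.0397, and in the share fit the log2 change was 0.13 ± 0.16 (SE; edgeR unadjusted p = 0.406). The last 30 bases of mt-Cytb, mt-Co3 and mt-Nd4 are shown, plus strand on GRCm38, because these 3 reading frames end in an incomplete stop codon, the single T in capitals, which a poly-A tail turns into UAA. They lie at chrM:15259-15288, chrM:9361-9390 and chrM:11515-11544.
mt-Cytb end: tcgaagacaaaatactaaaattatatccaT
mt-Co3 end: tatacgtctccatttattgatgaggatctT
mt-Nd4 end: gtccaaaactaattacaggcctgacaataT

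Complex IV reduces oxygen to water, and its 3 catalytic core subunits were the most counted mitochondrial genes. mt-Co1 (chrM:5328-6872, plus strand), which holds the oxygen-binding haem site, stood at 3836, 7424, 29105, 76400.3 and 29042 CPM under TMA-ARB, against 4524, 4801, 13372, 14445 and 8545 CPM in Control. It differed in level by 1.67 ± 0.71 (log2 fold change, SE; edgeR unadjusted p = 0.0367). Its share was 20.7, 23.0, 26.0, 23.5 and 24.1% under TMA-ARB, against 22.5, 24.5, 21.6, 21.1 and 24.6% in Control. TMA-ARB 8 was highest and TMA-ARB 6 lowest, so the whole Control range lay inside the TMA-ARB range. The log2 change of share was 0.037 ± 0.16 (SE), and -0.0022 without TMA-ARB 8.

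mt-Co2 (chrM:7013-7696, plus strand), which accepts electrons from cytochrome c at its copper site, stood at 3415, 5004, 17126, 55269 and 21849.9 CPM under TMA-ARB, against 4542, 3194, 12829, 13868 and 5568 CPM in Control. Its log2 fold change of level was 1.36 ± 0.72 (SE). As a share it was 18.5, 15.5, 15.3, 16.98 and 18.1% under TMA-ARB, against 22.6, 16.3, 20.8, 20.2 and 16.03% in Control. All 5 TMA-ARB libraries lay below the Control mean, but Control 2 and 5 lay among them. The share averaged 16.9 ± 1.46% under TMA-ARB and 19.2 ± 2.89% in Control (SD, n = 5 each), with an unadjusted two-sided exact permutation p = 0.151. mt-Co2 counts per 100 mt-Co1 counts were 89.0, 67.4, 58.8, 72.3 and 75.2 under TMA-ARB, against 100.4, 66.5, 95.9, 96.0 and 65.2 in Control. The 4 libraries with the most mt-Co2 relative to mt-Co1, Control 1, 4 and 3 and TMA-ARB 6, were also the 4 with the most mt-Nd6 relative to mt-Nd5 and the largest minus-strand share of the mitochondrial total. That share was 5.38, 4.03, 3.32, 4.11 and 3.74% under TMA-ARB, against 5.48, 3.44, 5.44, 5.68 and 3.75% in Control. The minus-strand share is not a separate measure from mt-Nd6, whose counts are part of it. In Control 4, mt-Nd6 took 4.05% and mt-Ts1 1.32% of the mitochondrial total, within the 5.68%. Counts of these genes cannot be told apart from reads of the opposite strand, as said above. The grouping of the 4 libraries was noticed after the values were seen and cuts across the treatment groups.

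mt-Co3 (chrM:8607-9390, plus strand), the remaining core subunit, stood at 2818, 5257, 18781, 51137 and 18497 CPM under TMA-ARB, against 3316, 3404, 9535, 10700.1 and 5351 CPM in Control. Its share was 15.2, 16.3, 16.8, 15.7 and 15.3% under TMA-ARB, against 16.5, 17.4, 15.4, 15.6 and 15.4% in Control, the narrowest relative spread of any mRNA. The log2 fold change of level was 1.58 ± 0.69 and the log2 change of share -0.018 ± 0.16 (SE), and Control 2 held the highest share; without it the log2 change of share was 0.012.

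Complex V makes ATP from the proton gradient. mt-Atp8 (chrM:7766-7969, plus strand) and mt-Atp6 (chrM:7927-8607, plus strand), both subunits of its membrane part, are carried on one mRNA and overlap by 43 bases, chrM:7927-7969, in different reading frames. The last 60 bases of mt-Atp8, chrM:7910-7969 on the plus strand of GRCm38, are shown with the shared bases in capitals. A read that lies wholly inside them matches both genes.
mt-Atp8 end: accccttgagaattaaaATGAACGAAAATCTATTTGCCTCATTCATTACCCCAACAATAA
mt-Atp6 stood at 1353, 2881, 8715, 28681 and 9325 CPM under TMA-ARB, against 788, 1541, 5103, 5518 and 3164 CPM in Control. mt-Atp8 stood at 152, 238, 981, 2406 and 968 CPM under TMA-ARB, against 158, 171, 441, 505 and 259 CPM in Control. The log2 fold change of level was 1.66 ± 0.79 for mt-Atp6 and 1.63 ± 0.69 for mt-Atp8 (SE). The mt-Atp6 share was 7.32, 8.93, 7.78, 8.81 and 7.74% under TMA-ARB, against 3.92, 7.87, 8.26, 8.05 and 9.11% in Control. Control 1 stood apart at 3.92%, where the deposited mt-Atp6 count, 12021, is the same number as that of mt-Nd6, and the other 9 libraries lay between 7.32 and 9.11%. No other library gave a pair of mitochondrial genes the same count among counts of at least 100, and what lies behind the value of Control 1 was not tested. The mt-Atp8 share was 0.824, 0.739, 0.876, 0.739 and 0.803% under TMA-ARB, against 0.783, 0.872, 0.714, 0.737 and 0.746% in Control, with Control 1 inside the range of the rest. mt-Atp8 counts per 100 mt-Atp6 counts were therefore 19.98 in Control 1, against 8.20 to 11.3 in the other 9 libraries. Log2 changes of share were 0.12 ± 0.22 for mt-Atp6 and 0.047 ± 0.16 for mt-Atp8 (SE), and without Control 1 the value for mt-Atp6 was -0.036.

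**Figure D3:**
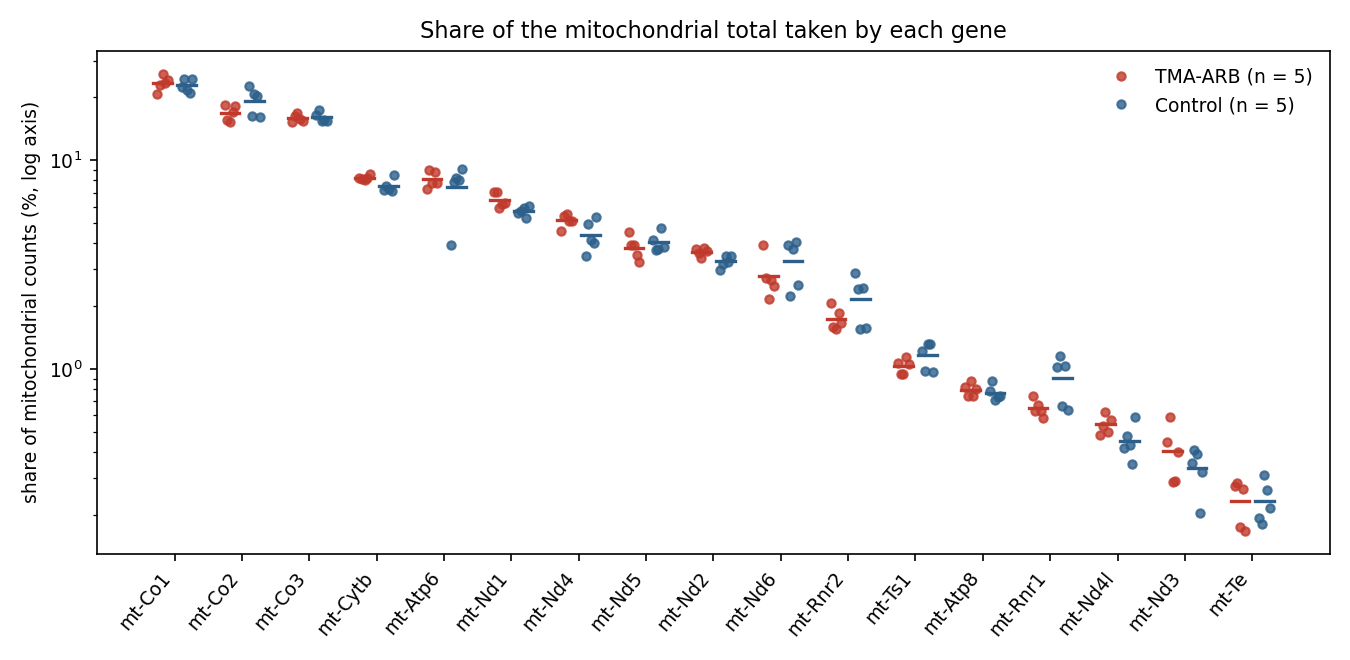
Share of the mitochondrial total (%, log axis) taken by each of the 17 most counted mitochondrial genes, with a point per library, TMA-ARB left of Control for each gene and a line at each group's mean. mt-Co1, mt-Co2 and mt-Co3 lie at the top between 15.2 and 26.0%, mt-Atp6 of Control 1 sits apart at 3.92%, and the groups overlap for every gene.

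Set per length, the order of the genes by counts was nearly the same in all 10 libraries. Counts per kilobase of each of the 15 mRNAs and rRNAs were expressed as a percentage of their sum in the library. mt-Co2 ranked 1 in every library with 24.0 ± 3.03% of the summed counts per kilobase, then mt-Co3 with 18.6 ± 0.981% and mt-Co1 with 13.7 ± 1.16% (SD over 10 libraries). mt-Atp6 (10.4 ± 2.01%), mt-Cytb (6.27 ± 0.489%), mt-Nd1 (5.79 ± 0.555%) and mt-Nd6 (5.33 ± 1.27%) followed and exchanged ranks 4 to 8 between libraries. mt-Atp8 (3.50 ± 0.286%), mt-Nd4 (3.15 ± 0.486%) and mt-Nd2 (3.04 ± 0.233%) held ranks 7 to 10. Of neighbours in this order, mt-Cytb and mt-Nd1, mt-Nd1 and mt-Nd6, mt-Atp8 and mt-Nd4, mt-Nd4 and mt-Nd2, mt-Rnr2 and mt-Nd3, and mt-Nd3 and mt-Rnr1 differed by less than the larger SD of the pair. mt-Nd5 stood at 1.96 ± 0.208%, mt-Nd4l at 1.53 ± 0.275%, mt-Rnr2 at 1.13 ± 0.268%, mt-Nd3 at 0.969 ± 0.276% and mt-Rnr1 at 0.740 ± 0.197%. The scale counts reads per annotated gene length in poly-A-selected RNA, with no correction for the positions that a read can take in short genes. Genes carried on the same mRNA differed on it: mt-Atp8 and mt-Atp6 (3.50 and 10.4%), and mt-Nd4l and mt-Nd4 (1.53 and 3.15%). It does not give molecules of rRNA or an order of mRNA abundance.

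The rRNAs form the core of the mitochondrial ribosome, mt-Rnr1 (chrM:70-1024, plus strand) of its small subunit and mt-Rnr2 (chrM:1094-2675, plus strand) of its large subunit, and are cut from the same heavy-strand precursor as the mRNAs. mt-Rnr1 stood at 137, 203, 753, 2058 and 701 CPM under TMA-ARB, against 206, 225, 412, 705 and 222 CPM in Control. mt-Rnr2 stood at 384, 511, 1744, 6024 and 2001 CPM under TMA-ARB, against 579.8, 474, 960.1, 1672 and 546 CPM in Control. TMA-ARB 9 was highest for both, and the fold changes of level, 1.12 ± 0.69 for mt-Rnr1 and 1.33 ± 0.71 for mt-Rnr2 (log2, SE), were below those of most mRNAs. mt-Rnr1 took 0.742, 0.628, 0.671, 0.632 and 0.581% under TMA-ARB, against 1.02, 1.15, 0.667, 1.03 and 0.638% in Control of the mitochondrial total. mt-Rnr2 took 2.08, 1.58, 1.56, 1.85 and 1.66% under TMA-ARB, against 2.88, 2.42, 1.55, 2.44 and 1.57% in Control. For both, every TMA-ARB library lay below the Control mean, while Control 3 and 5 lay within the TMA-ARB range for mt-Rnr1 and at its lower end for mt-Rnr2. The mt-Rnr1 share averaged 0.651 ± 0.0600% under TMA-ARB and 0.902 ± 0.234% in Control (SD, n = 5 each), and its log2 change of -0.47 ± 0.20 (SE; edgeR unadjusted p = 0.035, adjusted p = 0.997) did not pass. For mt-Rnr2 the change was -0.32 ± 0.21. The unadjusted two-sided exact permutation p was 0.0714 for mt-Rnr1 and 0.175 for mt-Rnr2.

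The 22 tRNAs carry amino acids to the mitochondrial ribosome, and all 22 had at least 1 count in some library. mt-Ts1, a serine tRNA coded on the minus strand between mt-Co1 and mt-Td, held 65.8 to 78.4% of all tRNA counts. mt-Te, the glutamate tRNA coded on the minus strand beside mt-Nd6, came next. The sequences of these leading tRNAs, of the histidine tRNA mt-Th and of mt-Tf, the phenylalanine tRNA with the fewest counts, are printed 5′ to 3′ from GENCODE on GRCm38, at chrM:6870-6938 (minus), chrM:14071-14139 (minus), chrM:11546-11612 (plus) and chrM:1-68 (plus). Capitals in mt-Ts1 mark the 3 bases that lie opposite the end of mt-Co1, chrM:6870-6872.
mt-Ts1: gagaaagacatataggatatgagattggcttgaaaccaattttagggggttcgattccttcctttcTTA
mt-Te: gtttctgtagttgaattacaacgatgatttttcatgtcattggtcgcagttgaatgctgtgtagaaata
mt-Th: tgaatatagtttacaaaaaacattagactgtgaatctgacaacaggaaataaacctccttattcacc
mt-Tf: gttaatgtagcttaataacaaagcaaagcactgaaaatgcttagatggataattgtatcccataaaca

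mt-Ts1 stood at 197, 305, 1059, 3723 and 1268 CPM under TMA-ARB, against 245, 192, 819, 902 and 335 CPM in Control. Its share was 1.07, 0.947, 0.945, 1.14 and 1.05% under TMA-ARB, against 1.22, 0.982, 1.32, 1.32 and 0.963% in Control. Every TMA-ARB library lay below the Control mean, Control 2 and 5 lay among them, and the unadjusted two-sided exact permutation p was 0.167. mt-Ts1 followed mt-Co2 more closely than mt-Co1: over the 10 libraries it had 5.40 to 6.74 counts per 100 mt-Co2 counts, a 1.25-fold range, and 3.64 to 6.24 per 100 mt-Co1 counts, a 1.72-fold range. mt-Te stood at 50.7, 92.2, 197, 871 and 202 CPM under TMA-ARB, against 39.0, 35.6, 192, 181 and 75.3 CPM in Control. Its share of 0.274, 0.286, 0.176, 0.268 and 0.168% under TMA-ARB, against 0.194, 0.182, 0.310, 0.264 and 0.217% in Control gave a log2 change of 0.0037 ± 0.22 (SE), which ran from -0.078 without TMA-ARB 7 to 0.13 without Control 3. Its ratio per 100 mt-Nd6 counts ran from 6.72 to 10.4 under TMA-ARB and from 4.95 to 8.56 in Control. mt-Ts1 and mt-Te differed in level by 1.39 ± 0.78 and 1.44 ± 0.81 in that order (log2 fold change, SE).

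The other 20 tRNAs together took 0.104 to 0.281% of the mitochondrial total under TMA-ARB and 0.120 to 0.354% in Control. Of these 20, 14 passed the filter on low counts. mt-Th (histidine) had 94, 156, 380, 888 and 440 counts under TMA-ARB, against 63, 69, 218, 279 and 123 counts in Control. Its share was 0.0307, 0.0317, 0.0250, 0.0279 and 0.0246% under TMA-ARB, against 0.0205, 0.0197, 0.0230, 0.0292 and 0.0214% in Control, with all 5 TMA-ARB libraries above the Control mean, Control 4 inside their range and an unadjusted two-sided exact permutation p of 0.0556. Next along the genome, mt-Ts2, the second serine tRNA, had 95, 107, 250, 1044 and 538 counts under TMA-ARB, against 190, 57, 253, 562 and 141 counts in Control. mt-Tl2, the leucine tRNA after it, had 83, 105, 177, 696 and 250 counts under TMA-ARB, against 149, 58, 160, 358 and 99 counts in Control. These 3 adjacent tRNAs lie between mt-Nd4 and mt-Nd5, and their log2 changes of share were 0.29 ± 0.18 for mt-Th, -0.51 ± 0.35 for mt-Ts2 and -0.52 ± 0.35 for mt-Tl2 (SE), none of which passed. Without TMA-ARB 9 the log2 fold change of level of mt-Tl2 was -0.064, against 1.03 with all libraries.

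A cluster of 4 minus-strand tRNAs lies between mt-Tw and mt-Co1, around the origin of light-strand replication. mt-Tc (cysteine) had 134, 118, 150, 509 and 88 counts under TMA-ARB, against 140, 56, 208, 183 and 104 counts in Control. mt-Ty (tyrosine) had 121, 71, 107, 403 and 84 counts under TMA-ARB, against 87, 49, 230, 132 and 51 counts in Control. mt-Tn (asparagine) had 85, 59, 62, 335 and 91 counts under TMA-ARB, against 179, 18, 133, 86 and 42 counts in Control. In all 3, TMA-ARB 9 was highest by count, while by share TMA-ARB 6 and Control 1 were the highest of their groups. mt-Ta (alanine) had 15, 15, 9, 31 and 1 counts under TMA-ARB, against 28, 0, 51, 28 and 7 counts in Control, the only mitochondrial gene tested with a negative log2 fold change of level, -0.41 ± 0.97 (SE). Without TMA-ARB 9 the log2 fold change of level was -0.13 for mt-Tc, -0.16 for mt-Ty and -0.27 for mt-Tn, while that of mt-Ta was 0.10 without Control 3.

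mt-Tk (lysine), between mt-Co2 and mt-Atp8, had 47, 25, 39, 340 and 148 counts under TMA-ARB, against 84, 27, 148, 191 and 18 counts in Control. mt-Tg (glycine), between mt-Co3 and mt-Nd3, had 42, 38, 104, 351 and 155 counts under TMA-ARB, against 63, 16, 107, 174 and 66 counts in Control. mt-Tl1, the leucine tRNA after mt-Rnr2, had 36, 39, 119, 328 and 115 counts under TMA-ARB, against 25, 14, 143, 94 and 46 counts in Control. TMA-ARB 9 was highest for each, and their log2 fold changes of level were 0.72 ± 0.93 for mt-Tk, 1.05 ± 0.81 for mt-Tg and 1.36 ± 0.83 for mt-Tl1 (SE), that of mt-Tk being -0.52 without TMA-ARB 9. mt-Ti (isoleucine) had 18, 12, 40, 113 and 93 counts under TMA-ARB, against 11, 23, 41, 42 and 20 counts in Control. mt-Tr (arginine) had 11, 25, 18, 112 and 92 counts under TMA-ARB, against 18, 5, 39, 68 and 17 counts in Control. Both were highest in TMA-ARB 9 and 10. mt-Tq (glutamine), on the minus strand between mt-Ti and mt-Tm, had 13, 20, 50, 111 and 22 counts under TMA-ARB, against 19, 18, 30, 4 and 17 counts in Control, with a log2 fold change of level of 1.73 ± 0.73 (SE; edgeR unadjusted p = 0.0334). mt-Tw (tryptophan) had 32, 10, 33, 35 and 36 counts under TMA-ARB, against 16, 7, 53, 10 and 10 counts in Control, with Control 3 the highest of all 10 libraries.

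The 6 tRNAs under the filter were near the floor of detection. mt-Td (aspartate) had 2, 5, 22, 42 and 0 counts under TMA-ARB, against 5, 0, 24, 6 and 9 counts in Control. mt-Tm (methionine), mt-Tv (valine), mt-Tt (threonine) and mt-Tp (proline) had means of 9.80, 5.00, 6.00 and 5.00 counts per library and maxima of 25, 19, 17 and 21. They were above 0 in 9, 8, 6 and 7 of the 10 libraries. mt-Tf had 1 count in TMA-ARB 6 and 0 in the other 9 libraries. A count of 0 allows a level of up to 0.178 to 0.235 CPM per library (3 counts of the library total). Without the filter, edgeR gave adjusted p-values from 0.730 to 0.984 for these 6 genes.

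**Figure D4:**
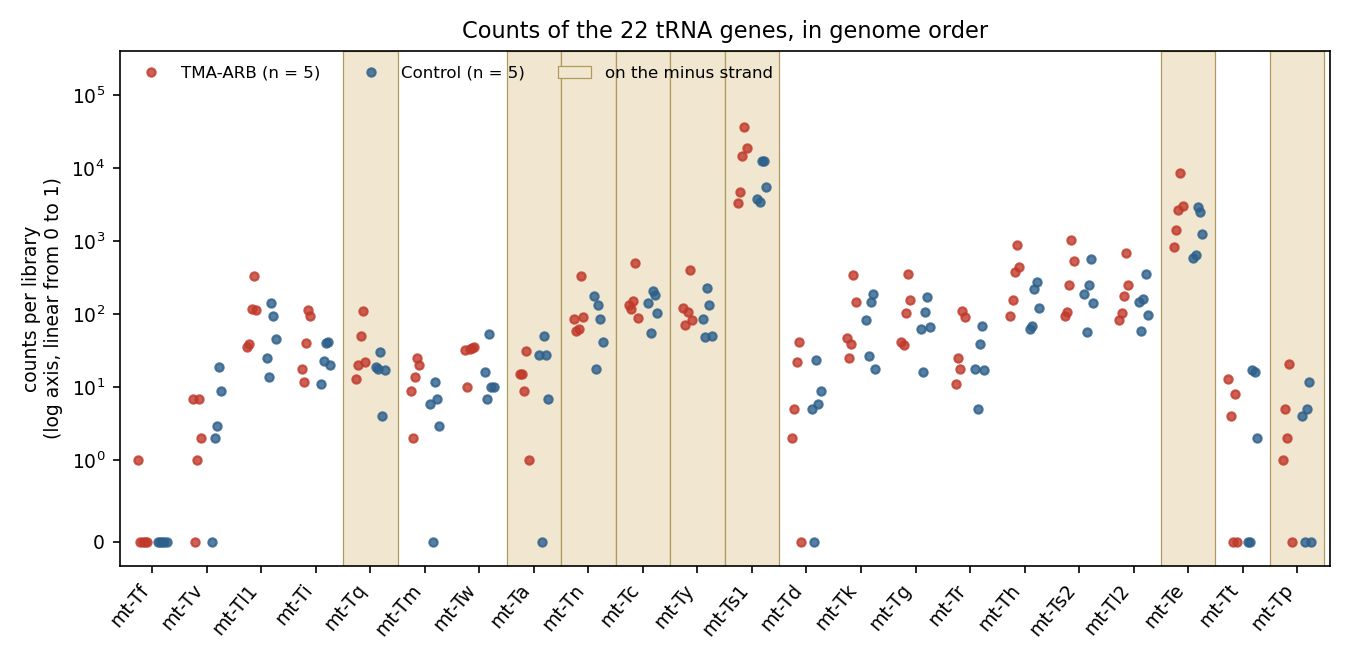
Deposited counts per library (log axis, linear from 0 to 1) of the 22 mitochondrial tRNA genes in genome order, with a point per library, TMA-ARB left of Control for each gene and shading for genes on the minus strand. mt-Ts1 and mt-Te stand above all others, mt-Ts1 reaching 36387 counts in TMA-ARB 9, and mt-Tf holds a single count.

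Copies of mitochondrial genes in nuclear chromosomes can take reads from them. Of 17 annotated copies that matched at 90% identity or more over 100 bases or more, 9 were in the table, with 6290 counts in all, 0.0604% of the mitochondrial total. Gm13340, 97.6% identical to mt-Co1 over 1545 bases, held 3940 of them. Its log2 fold change of level was 1.59 ± 0.71 (SE), close to the value of mt-Co1. Gm13341, a copy of mt-Co2, held 1385, with 1.37 ± 0.73. Gm8186, a pseudogene that had been listed with the copies, gave no such match and is outside the 6290 counts; it held 6975 counts and differed by 0.39 ± 0.31. The other 8 copies were not analysed here.

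Nuclear genes that act on the mitochondrial genome did not pass either. Of 15 measured genes of mitochondrial transcription and replication, 0 passed in either direction, 0 had an unadjusted p under 0.05, and 13 had positive and 2 negative log2 fold changes (median 0.21). Tfb2m, the transcription factor that opens mitochondrial promoters, had the smallest p of them, with 0.56 ± 0.28 (log2 fold change, SE), followed by Mterfd3 with 0.47 ± 0.29 and Mterfd1 with 0.29 ± 0.19. Of 24 genes of mitochondrial RNA processing, polyadenylation and decay, 0 passed and 1 was higher at an unadjusted p under 0.05, against 1.59% of all genes tested. It was Fastkd3, of a family of mitochondrial RNA-binding proteins, with 0.67 ± 0.26 (SE; edgeR unadjusted p = 0.0232). Supv3l1, the helicase of the mitochondrial degradosome, stood at 0.36 ± 0.18 and Trmt10c, a subunit of mitochondrial RNase P, at 0.46 ± 0.28. The median of the list was 0.18. Of 9 biogenesis factors tested of 10, 0 passed; Pprc1 stood at 0.28 ± 0.19, Gabpb1 at 0.18 ± 0.17 and Esrra at 0.21 ± 0.22.

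The nuclear subunits of the same complexes offered a second comparison. The log2 fold changes of level of the 13 mitochondrial mRNAs ran from 1.13 to 1.88, against a median of 0.094 over 36 nuclear genes of complex I, of which 0 passed. Among the nuclear genes Ndufb4, an accessory subunit, was the single one with an unadjusted p under 0.05 (3.25% of all genes tested in either direction), at 1.40 ± 0.43 (SE; edgeR unadjusted p = 0.00682), and Ndufab1 stood at 0.44 ± 0.25 and Ndufa1 at 0.38 ± 0.24. Of 35 nuclear genes of complexes III, IV and V, 0 passed and 0 had an unadjusted p under 0.05, with a median of 0.13; Atp5j stood at 0.46 ± 0.21, Cox7c at 0.47 ± 0.28 and Atp5d at -0.26 ± 0.16. Summed over the 36 complex I genes, the CPM taken over the counts outside the mitochondrial genome was 3253, 4719, 3716, 4767 and 4522 under TMA-ARB, against 4428, 2901, 4371, 4688 and 3658 in Control. TMA-ARB 9, with 25.0% mitochondrial counts, stood beside TMA-ARB 7 at the top of this order, and Control 2 and TMA-ARB 6 at the bottom. The difference between nuclear and mitochondrial genes of a complex was not tested.

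Other measures of the libraries are set beside the mitochondrial share, and their part in the result was not tested. Genes with at least 1 count numbered 19158, 18825, 18465, 16773 and 17684 under TMA-ARB, against 18227, 18607, 17815, 16902 and 18688 in Control. They were fewest in TMA-ARB 9 and Control 4, each the library of its group with the largest mitochondrial share. Each was also the library of its group with the fewest counts outside the mitochondrial genome, about 9560990 in TMA-ARB 9 and 13471000 in Control 4. Malat1, a nuclear-retained long RNA, stood at 246, 234, 1978, 3430 and 2342 CPM under TMA-ARB, against 436, 612, 802, 959 and 646 CPM in Control. It was highest in the same 3 TMA-ARB libraries as the mitochondrial share, and lowest in TMA-ARB 6 and 7. Neat1, another nuclear-retained RNA, stood at 229, 279, 1329, 1398 and 1471 CPM under TMA-ARB, against 501, 578, 733, 748 and 651 CPM in Control. Meg3, the remaining tested gene of that list, did not follow this order, with 8.28, 18.8, 3.98, 7.98 and 14.6 CPM under TMA-ARB, against 12.9, 3.64, 7.24, 8.17 and 5.75 CPM in Control. The 3 did not pass. The 12 leukocyte markers, 10 of them tested and 0 passing, summed to 1958, 4267, 1177, 651 and 1046 CPM under TMA-ARB, against 3409, 2435, 1107, 1783 and 1393 CPM in Control, the sum being lowest in TMA-ARB 9. Single markers differed in this. Csf1r (27.9 CPM) and Cd3e (0 CPM) were lowest in TMA-ARB 9. Ptprc stood at 59.4 CPM there, against 49.8 in TMA-ARB 10, and S100a9 at 50.5 CPM, against 20.6 in TMA-ARB 6.

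Marker lists were summed for the cell types that such a tumour can hold. The 10 skeletal muscle markers, 4 of them tested and 0 passing, summed to 58.0 to 279 CPM under TMA-ARB and 82.6 to 213 CPM in Control, and TMA-ARB 9 held 76.4 CPM. Acta1 made up most of these sums except in Control 1. The other 9 muscle markers summed to 2.42, 2.10, 6.71, 6.65 and 8.63 CPM under TMA-ARB, against 108, 3.81, 60.05, 5.30 and 4.91 CPM in Control, high in Control 1 and 3. All 4 tested had negative log2 fold changes (median -1.60), and 2 of them, Mylpf and Myh1, were lower at an unadjusted p under 0.05 (1.66% of all genes tested were). The 10 adipocyte markers, brown-fat Ucp1 among them with 9 counts over all 10 libraries, summed to 37.8 to 58.3 CPM and 41.9 to 61.4 CPM. The 10 epithelial markers summed to 107 to 243 CPM under TMA-ARB and 84.0 to 159 CPM in Control, fibroblast markers to 5117 to 5847 CPM and 4944 to 6232 CPM, endothelial markers to 188 to 304 CPM and 237 to 411 CPM, and red cell genes to 93.3 to 472 CPM and 168 to 1439 CPM. No list had a marker at 0 in all libraries, and 0 markers of any of the lists passed. Beside the muscle genes, 1 of 6 epithelial markers tested, Krt8, was higher at an edgeR unadjusted p under 0.05 (1.59% of all genes tested were). Krt8 stood at 56.7 CPM in TMA-ARB 6 and 8.23 to 24.5 CPM in the rest of its group. Control held 8.02 to 16.8 CPM. Of 8 endothelial markers tested, 1, Plvap, was lower at that p (1.66% of all genes tested were). Of the 10 epithelial markers, 6 passed the filter on low counts, against 8 of 8 fibroblast markers. The lists were chosen here and not taken from the labels, and these counts depend on the genes listed.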

How the data were processed

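RNA was measured in 10 MCa-M3C breast tumour libraries, grouped by title (5 TMA-ARB, 5 Control), after poly-A selection, per the labels' protocols. The authors deposited estimated counts for 37882 genes. They used Salmon and mm10, per the submitters' processing notes; version, annotation and strand setting are not given in the sources used here. Salmon divides reads among similar transcripts. All values were whole (0 were not), so rounding for the count tests changed none, and 0 columns were left unmatched. Totals ran from 12742953 to 16884621 counts.

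From the deposited counts, CPM were computed here with library sizes scaled by TMM. The level fit was edgeR's quasi-likelihood F test (version 4.0.16, R 4.3.3) with its default filter (minimum count 10), robust dispersions and Benjamini-Hochberg adjustment over 14063 genes at 0.05. The SE is the absolute log2 fold change divided by the square root of F. The share fit used the same test with the mitochondrial total as the library size of the mitochondrial rows. Shares were also compared by two-sided exact permutation. The fits were tested on simulated counts, the level fit on changed nuclear genes only and the share fit on changed mitochondrial genes. The power of the level fit for mitochondrial genes was not checked. Exact binomial intervals (95%) and the limit of 3 counts cover counting error only, since no molecular identifiers are named.

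The mitochondrial genes and all gene lists were chosen with earlier results of these data known. Mitochondrial genes with a mean of at least 10 counts per library are given in every library, the others by counts; from each nuclear list the called genes and the 3 of smallest unadjusted p are named. Alternatives were RLE scaling, library totals, scaling without mitochondrial genes, no filter, a mean of at least 5 CPM, DESeq2 1.42.0, limma-voom (limma 3.58.1) with sample weights, other share totals, limma on log2 shares (0.5 counts added), nuclear copies added to the total, and each library left out. Coordinates and sequences come from GENCODE mouse release 21 on GRCm38, the assembly of mm10, matched by Ensembl identifier for all 37 genes; copies were found with BLAST+ 2.17.0, and figures drawn with Python 3.11.15 and matplotlib 3.10.9.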

Additional observations from a re-analysis of the deposited data

Results flagged for a closer look

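In each group, the highest and lowest library of each of the 31 tested mitochondrial genes, by level and by share, and of the mitochondrial share of all counts were checked for a gap to the nearest library that was large against the range of the group. Chance flags about 1 in 20 such groups where the values are normally distributed, which was not checked here. On correlated genes, 126 group checks were made, and 19 were flagged. No explanation was tested.

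By level, 12 genes were flagged for TMA-ARB 9, the library with 25.0% mitochondrial counts. Among them mt-Rnr2, the large-subunit rRNA, stood at 6020 CPM in TMA-ARB 9 (the other 4 TMA-ARB libraries 384 to 2000), and mt-Nd6, the complex I mRNA of the minus strand, at 8650 CPM (the other 4, 725 to 3010). Of the tRNAs, mt-Te (glutamate) stood at 871 CPM in TMA-ARB 9 (50.7 to 202 in the other 4), mt-Th (histidine) at 90.9 CPM (5.68 to 29.7), and mt-Tl2 (leucine) at 71.2 CPM (5.02 to 16.9). The minus-strand cluster gave 52.1 CPM for mt-Tc (5.94 to 11.1), 41.2 CPM for mt-Ty (4.66 to 7.89) and 34.3 CPM for mt-Tn (3.87 to 6.14). The remaining 4 were mt-Tg at 35.9 CPM (2.49 to 10.5), mt-Tk at 34.8 CPM (1.64 to 9.98), mt-Tl1 at 33.6 CPM (2.18 to 8.78) and mt-Tq at 11.4 CPM (0.786 to 3.69). In Control, mt-Tw (tryptophan) stood at 3.46 CPM in Control 3, with the other 4 Control libraries at 0.392 to 1.05 CPM.

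By share of the mitochondrial total, 6 values were flagged, and none was in TMA-ARB 9. mt-Atp6, of complex V, took 3.92% in Control 1 (7.87 to 9.11% in the other 4 Control libraries), its count there being the same number as that of mt-Nd6, and mt-Cytb, of complex III, took 8.47% in Control 5 (7.13 to 7.51%). mt-Tw took 0.0105% in TMA-ARB 6 (0.0011 to 0.00217% in the other 4 TMA-ARB libraries) and mt-Ty 0.0395% in TMA-ARB 6 (0.0047 to 0.0144%). In Control 1, mt-Tn took 0.0584% (0.00515 to 0.0140% in the other 4 Control libraries) and mt-Tc 0.0457% (0.016 to 0.0220%).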

How the results depend on the processing

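No setting passed a mitochondrial gene at an adjusted p under 0.05, in the level fit or the share fit; DESeq2 passed 2 of all genes, neither of them mitochondrial, and gave no adjusted p for 13985. Counts at an unadjusted p under 0.05 were 11 of 31 as reported, 13 of 37 with DESeq2, 16 of 31 with limma-voom, 11 with RLE scaling, 9 with library totals, 5 of 37 with no filter and 10 of 26 at a mean of at least 5 CPM. The share of all genes tested at that p was 3.25% as reported. It was not taken for the other settings, so their counts have no such share beside them. The median log2 fold change of level ran from 1.12 to 1.40 over these settings, and from 0.57 (without TMA-ARB 9) to 1.71 (without Control 4) with 1 library left out. The difference in mitochondrial share ran from 2.69 points (without TMA-ARB 9) to 8.38 points (without TMA-ARB 6). It was 6.32 points with the listed nuclear copies added and 6.31 with all matched copies, a setting chosen after seeing the data, and 8.33 as counts per 100 other counts. No scaling moved the median of all genes by more than 0.1; it was -0.077 with library totals and 0.021 to 0.032 otherwise.

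Leaving out 1 library turned the sign of 6 changes of level, all of tRNAs: mt-Ta ran from -1.18 to 0.10, mt-Tc from -0.13 to 1.12, mt-Tk from -0.52 to 1.22, mt-Tl2 from -0.064 to 1.61, mt-Tn from -0.27 to 1.22 and mt-Ty from -0.16 to 1.34. It turned the sign of 11 changes of share, on the log2 scale: mt-Atp6 ran from -0.036 to 0.21, mt-Co1 from -0.0022 to 0.078, mt-Co3 from -0.038 to 0.012, mt-Tc from -0.83 to 0.029, mt-Te from -0.078 to 0.13, mt-Tl1 from -0.23 to 0.22, mt-Tn from -1.23 to 0.37, mt-Tq from -0.42 to 0.17, mt-Tr from -0.44 to 0.039, mt-Tw from -0.77 to 0.48 and mt-Ty from -0.89 to 0.018. The change of share also turned for mt-Te with the total over the 13 mRNAs (-0.0077), the total without the 2 rRNAs (-0.0048) and limma on log2 shares (-0.0035). With limma it turned for mt-Tl1 (0.053), mt-Tq (0.16) and mt-Tw (-0.040) as well. The cause was not tested. None of these changes passed a test. No paired analysis was possible because the groups share no replicate number (6 to 10 and 1 to 5). The 6 tRNAs under the filter had means of at most 11.5 counts per library, and what limits them was not tested.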
